A study of Mus musculus with 4 samples.

Results

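Long intergenic non-coding RNAs (lincRNAs) that were abundant in the injured mouse kidney were described from 4 RNA-sequencing libraries. The lincRNAs were chosen by their measured level, as the rows of the deposited gene table with the biotype lincRNA and a mean of at least 2 FPKM (fragment counts divided by gene length and a library total) over the 4 libraries. These were 111 of the 5386 lincRNA rows, in a table of 54078 features. The libraries were made from kidney at day 3 after both renal pedicles of adult male mice had been clamped for 30 min and released. All mice carried floxed alleles of Apela, the gene of the peptide hormone Elabela. In Apela Ksp KO mice (hereafter KO), which also carried Cre driven by the Ksp-cadherin promoter, the gene was deleted in renal tubular epithelium, while the wildtype littermates (WT), Apela flox/flox Cre-/-, had no Cre. Each group had 2 libraries, and each library was a pool of RNA from 3 mice, so n = 2 counts pools and p-values measure the spread between pools. The question of the comparison was which transcripts differ between injured kidneys with and without tubular Apela. At this stage the study reported higher serum creatinine and urea nitrogen, more severe tubular injury and lower survival in KO. Differences by genotype and by severity of injury therefore cannot be told apart in these libraries. The labels give the strain as C57BL/6 x 129S4/SvJae where the study's methods give C57BL/6, and the series text names adipose tissue where its title and the sample labels name kidney.

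A lincRNA is an RNA transcribed from its own locus between protein-coding genes, spliced and polyadenylated like an mRNA in most cases, but without a recognised long reading frame. Some act in the nucleus as scaffolds, such as Neat1, on which paraspeckles are built, and Malat1, a component of nuclear speckles. Others act in the cytoplasm by binding proteins or microRNAs, serve as precursors of small nucleolar RNAs (snoRNAs) or microRNAs, or are by-products of transcription at a neighbouring promoter, and for most no function is known.

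Sequences of 3 kinds show how differently the abundant lincRNAs are built. The first kind is shown because it bears on how the 2 lincRNAs with the highest FPKM were captured by the poly-T beads with which mRNA was purified. The mature Malat1 and the long form of Neat1 have no poly(A) tail of their own, since their 3′ ends are cut by RNase P in front of a tRNA-like structure and protected by a triple helix of U-rich stretches with a genome-encoded A-rich tract. Both ends are given 5′ to 3′ from the GENCODE M21 transcripts, with the longest U-rich stretch that both share, of 16 bases, and the A-rich tract in capitals.
Malat1, bases 6630 to 6705 of 6983: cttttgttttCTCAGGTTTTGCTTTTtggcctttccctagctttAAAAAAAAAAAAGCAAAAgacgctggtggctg
Neat1, bases 20703 to 20771 of 20771: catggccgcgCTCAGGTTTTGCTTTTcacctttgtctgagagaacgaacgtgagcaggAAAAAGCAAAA
The Neat1 tract stands at the last base of the annotated transcript, whereas in the annotated Malat1 the run of 12 A ends 298 bases before the end.

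The second kind is shown because it is the binding code of 2 cytoplasmic lincRNAs. 2900097C17Rik, which RefSeq names Norad, binds the Pumilio proteins, repressors of mRNAs that read the motif TGTANATA. It held 11 copies of this motif on the sense strand of its 4915 bases, the next highest count among the 110 lincRNAs with a transcript sequence was 4, and 17 of them (15.5%) held at least 1. In the window with its nearest pair of motifs, these are in capitals.
Norad, bases 2432 to 2468: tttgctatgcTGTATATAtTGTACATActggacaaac
1700020I14Rik, which RefSeq names Oip5os1 and which is also called Cyrano, carries a long site for the microRNA miR-7 and is known to promote the decay of that microRNA. The site is given with the match to the seed in capitals, and the RefSeq sequence of miR-7a-5p with its seed (bases 2 to 8) in capitals.
Cyrano, bases 2934 to 2959 of 8300: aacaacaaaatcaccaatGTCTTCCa
miR-7a-5p: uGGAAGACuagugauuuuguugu
Outside a short interruption, 21 of the 23 bases of miR-7a-5p have their complement in the site in blocks of 3 or more.

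The third kind is shown because 5 of the 111 loci are also the source of a microRNA. Mature sequences from RefSeq, on GRCm38.p6, lay on the same strand inside an exon of E130102H24Rik (miR-101a), Gm27028 (miR-30c), 6720427I07Rik (let-7d), 2900076A07Rik (miR-1839) and Snhg20 (miR-6516). One arm of each is given with its seed in capitals, and no 2 of these seeds are the same.
miR-101a-3p, chr4:101346957-101346977, minus strand: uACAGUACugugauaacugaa
miR-30c-5p, chr1:23291714-23291736, plus strand: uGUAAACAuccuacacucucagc
let-7d-5p, chr13:48536078-48536099, minus strand: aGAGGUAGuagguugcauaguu
miR-1839-5p, chr7:81529919-81529940, plus strand: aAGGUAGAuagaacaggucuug
miR-6516-5p, chr11:117077370-117077391, plus strand: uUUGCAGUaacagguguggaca
Mature microRNAs are too short for these libraries, and the microRNA rows inside the 5 lincRNAs were listed at 0 in each pool.

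Across the 4 pools, 16045724 to 16927742 reads fell on genes, of which the 111 lincRNAs took 0.354% to 0.421%. FPKM is scaled by gene length, so levels can be compared between genes only roughly. The length was the union of all annotated exons in 101 of the lincRNAs. For Neat1 it was 20771 bases, although a form of 3004 bases is also annotated. Apela, the targeted gene, had 5.27 and 4.57 (WT) and 0.536 and 0.245 (KO) FPKM, which is lower in both KO pools, as labelled. The 4 proximal tubule markers (Lrp2, Slc34a1, Cubn and Slc5a2) summed to between 519 and 1143 FPKM in each pool, while the 6 adipose markers summed to between 0.0929 and 0.405 FPKM and 4 of them had no more than 3 reads in any pool. WT replicate 2 stood apart, with 489 FPKM for the sum of 10 macrophage markers against 208 to 263 FPKM in the other pools. In whole kidney RNA, fewer cells of a type and less RNA per cell cannot be told apart.

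Few lincRNAs reached the level used here. Of the lincRNA rows, 2.06% had a mean of at least 2 FPKM, against 46.5% of the 22058 protein-coding rows, and 3577 lincRNA rows had no read in any pool. Within the 111 the levels were uneven. The median of their mean levels was 3.82 FPKM, 22 reached 10 FPKM, 71 lay between 2 and 5 FPKM, and Malat1 alone reached 100 FPKM and held 20.6% of their summed FPKM. The 10 highest held 48.0%. Just inside the threshold stood 6720427I07Rik with a mean of 2.02 FPKM, Gm10732 with 2.01 and 4632404H12Rik with 2.01, and just outside 2310026L22Rik with 1.98, 1300014J16Rik with 1.95 and Gm29337 with 1.91. A mean of at least 2 FPKM was held in both groups by 90 lincRNAs, in WT alone by 8 and in KO alone by 13, and 71 were at 2 FPKM or above in each of the 4 pools. The level also sets the precision. The median was 88 reads per lincRNA and pool, 49 lincRNAs had fewer than 100 reads in each pool, and 1, Gm33424, had no more than 3 reads in some pool.

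**Figure D1:**
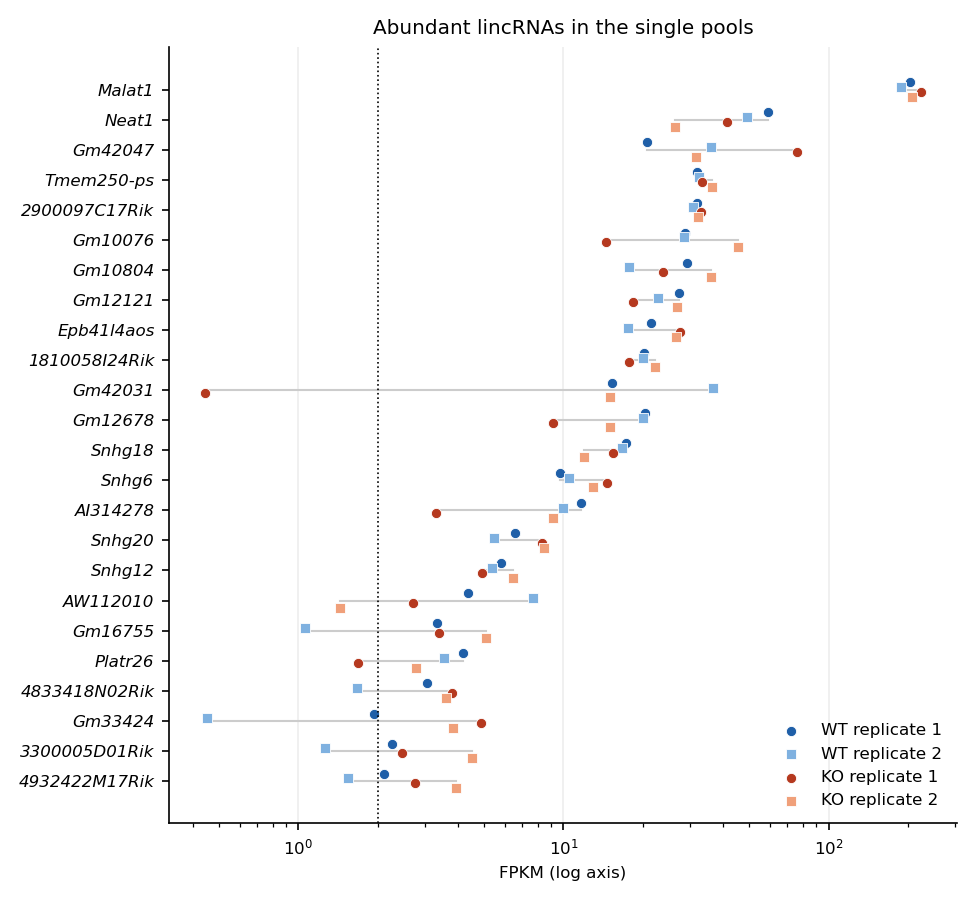
FPKM (log axis) of the named lincRNAs in each pool, ordered by mean level, with WT pools in blue and KO pools in red, circles for replicate 1 and squares for replicate 2, a grey line over the range of the 4 pools, and a dotted line at 2 FPKM. Malat1 lies above 187 FPKM in each pool, 2900097C17Rik (Norad) spans 30.8 to 32.9 FPKM, and Gm42031 runs from 0.44 to 36.6 FPKM.

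Between the injured KO and WT kidneys, the nuclear lincRNA Neat1 was lower in both KO pools, and Malat1 was slightly higher in both as deposited but not with quantile normalization. The snoRNA hosts Snhg6, Snhg20 and Epb41l4aos were 1.37 to 1.39 times as high in the KO mean as in the WT mean. AW112010, an immune transcript, and Gm12678 and Platr26, both of unknown role here, were lower in both KO pools. None of these differences passed the threshold. With limma on log2(FPKM + 0.5), a scale that understates the change of low genes, and Benjamini-Hochberg adjustment over the 15414 genes with a mean of at least 0.5 FPKM, 0 of the 111 lincRNAs had an adjusted p-value under 0.05, as did 0 of all genes (0%), and the smallest adjusted p-value of a lincRNA was 0.683. At an unadjusted p under 0.05, limma gave 7 lincRNAs higher in KO (6.31%, against 3.29% of all genes tested) and 7 lower (6.31%, against 3.03%). The 7 higher rested on the WT pools: they became 28 without WT replicate 1 and 3 without WT replicate 2, while the genes at that level in either direction went from 974 to 1720 and 687. With 2 pools a group, 0.333 is the smallest two-sided p that exact permutation could reach, so each lincRNA described is given by its FPKM in both replicates of WT and of KO, in this order.

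Both KO pools lay above both WT pools in 27 lincRNAs (24.3%), against 19.7% of all genes tested, and below both in 22 (19.8%), against 18.1%. In the other 62 the pools overlapped. The log2 fold change was above 0 in 67 and below 0 in 44, with a median of 0.097 against 0.0071 over all genes tested. This median rested on WT replicate 2: without this pool it was -0.035. The lincRNAs were also more variable than genes in general. Their median absolute log2 fold change was 0.33 against 0.15 for all genes tested, while the median difference between the replicates was 0.36 in WT and 0.30 in KO, against 0.20 and 0.17, all on the log2(FPKM + 0.5) scale. The first is a difference of means of 2 pools and the others are differences of single pools, so their sizes are not compared. Antisense genes with a mean of at least 2 FPKM had 0.28, 0.31 (WT) and 0.22 (KO) for the same measures. Genes of the biotype processed transcript at that level had 0.22, 0.27 and 0.26, and protein-coding genes 0.13, 0.16 and 0.14. Values above those of all genes tested were therefore not particular to lincRNAs. The shorter length of the lincRNAs (a median of 1428 bases against 3608) leaves fewer reads at the same FPKM. The part of length in the spread was not tested.

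**Figure D2:**
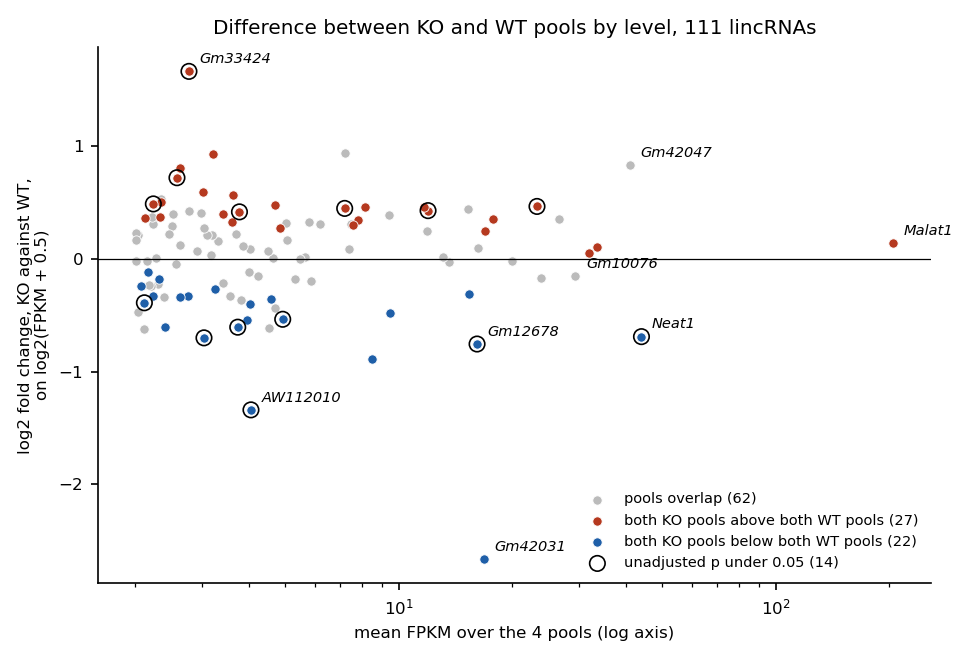
Log2 fold change of KO against WT, on log2(FPKM + 0.5), against the mean FPKM over the 4 pools (log axis) for the 111 lincRNAs, coloured by whether both KO pools lie above (27, red) or below (22, blue) both WT pools or overlap with them (62, grey), with rings around the 14 with an unadjusted limma p under 0.05. Only Gm33424, AW112010 and Gm42031 lie beyond 1 in either direction.

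Among the lincRNAs of nuclear architecture, Malat1 (chromosome 19 from 5795690 to 5802672 on the minus strand, 1 exon block of 6983 bases on GRCm38) had 202 and 188 (WT) and 224 and 206 (KO) FPKM. The KO pools were above the WT pools by little, with a WT mean of 195 ± 10.1 and a KO mean of 215 ± 12.7 (SD, n = 2 pools each) FPKM, and the log2 fold change was 0.14 (standard error 0.15). Its sign turned with quantile normalization, which gave -0.025, so no direction is given for Malat1. These values rest on 22563 to 26130 reads per pool, the most of any of the 111.

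Neat1 (chromosome 19 from 5824708 to 5845478 on the minus strand, 20771 bases, the next lincRNA beside Malat1 on the same strand) had 58.9 and 49.1 (WT) and 41.6 and 26.5 (KO) FPKM. Both KO pools were below both WT pools, with a WT mean of 53.99 ± 6.90 and a KO mean of 34.02 ± 10.7 (SD, n = 2 pools each) FPKM, the lower value being that of KO replicate 2. The log2 fold change was -0.69 (standard error 0.25), with an unadjusted p of 0.045 and an adjusted p of 0.785 (limma), and it went from -1.01 without KO replicate 1 to -0.37 without KO replicate 2. Neat1 is also a target of p53, and of the 3 tested genes listed as linked to p53, the snoRNA host Gas5 had a log2 fold change of 0.18 and Tug1 of -0.10. Of the 16 genes listed for proteins of the paraspeckle, which Neat1 holds together, 9 were higher and 7 lower in KO in value, with a median log2 fold change of 0.0061, 0 passed the threshold and 0 had an unadjusted p under 0.05 with limma. The 3 with the largest values were Zc3h6 with 0.67, Tardbp, a splicing factor, with 0.22 and Rbmx, an RNA-binding protein, with 0.21. Without WT replicate 2, Zc3h6 had 0.34 and Rbmx 0.072, and without KO replicate 1 Rbmx had 0.063. Of the 16, 2 were higher and 1 lower without overlap of the pools (19.7% and 18.1% of all genes tested). The core paraspeckle protein Nono had 39.3 and 48.2 (WT) and 40.8 and 37.1 (KO) FPKM and Sfpq 36.7 and 39.6 (WT) and 33.8 and 35.9 (KO) FPKM. The paraspeckle genes thus had log2 fold changes on both sides of 0.

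Both cytoplasmic lincRNAs shown above by sequence were among the steadiest of the 111. Norad (chromosome 2 from 156388065 to 156392979 on the minus strand) had 31.9 and 30.8 (WT) and 32.9 and 32.1 (KO) FPKM, and its log2 fold change was 0.05 (standard error 0.11), with the sign turning under quantile normalization (-0.010). Of its 31-base windows, 44.7% also occur in transcripts of other genes, mostly Gm7292, a row with 1 to 5 reads per pool, and how reads in these windows were counted is not given in the sources used here. Cyrano had 16.9 and 14.5 (WT) and 16.7 and 16.9 (KO) FPKM, with a log2 fold change of 0.10 (standard error 0.12). In 8 lincRNAs the highest pool was less than 1.2 times the lowest: Malat1, Norad, Cyrano, Tmem250-ps, 4632415L05Rik, 2900076A07Rik, Gm10845 and 4632404H12Rik. The opposite end was held by 12 lincRNAs whose highest pool was at least 3 times the lowest, among them Gm42031, Gm33424 and AW112010.

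The snoRNA hosts are genes whose introns are processed into snoRNAs, guides for the modification of ribosomal RNA, and whose spliced RNA is mostly a by-product degraded by nonsense-mediated decay. Of the 111 lincRNAs, 5 were in the list of snoRNA hosts. Epb41l4aos (chromosome 18) had 21.4 and 17.6 (WT) and 27.5 and 26.5 (KO) FPKM, with a WT mean of 19.5 ± 2.72 and a KO mean of 27.01 ± 0.729 (SD, n = 2 pools each). Snhg6 (chromosome 1 from 9941959 to 9944118 on the minus strand), with Snord87 in an intron, had 9.72 and 10.5 (WT) and 14.7 and 12.95 (KO) FPKM. Snhg20 (chromosome 11 from 117076790 to 117078955 on the plus strand) had 6.55 and 5.47 (WT) and 8.31 and 8.42 (KO) FPKM. Unlike the hosts defined above, Snhg20 had no snoRNA row inside its locus. It held a small Cajal body RNA (Gm26083) and miR-6516, both in an exon. In these 3 hosts neither KO pool overlapped with a WT pool, with higher values in KO and log2 fold changes of 0.47 (standard error 0.14), 0.43 (standard error 0.12) and 0.45 (standard error 0.13). Their unadjusted p-values from limma were 0.023, 0.019 and 0.021, and their adjusted p-values 0.785, 0.77 and 0.785. Snhg18 (chromosome 15 from 32240565 to 32244662 on the minus strand), with Snord123 in an intron, had 17.2 and 16.7 (WT) and 15.4 and 11.9 (KO) FPKM, so that both KO pools were below both WT pools, with a log2 fold change of -0.31, or -0.13 without KO replicate 2. Snhg12 (chromosome 4 from 132308678 to 132311024 on the plus strand), which holds several snoRNAs, had 5.82 and 5.36 (WT) and 4.93 and 6.48 (KO) FPKM, with overlapping pools and a log2 fold change of 0.02, whose sign turned when single pools were left out.

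The host genes outside the lincRNA biotype had mostly higher values in KO as well. Over all 15 tested genes of the list, whichever their biotype, 13 were higher and 2 lower in KO, against 7917 and 7497 of all 15414 genes tested. Without KO replicate 2, Snhg10 (-0.29), Snhg12 (-0.17), Snhg8 and Zfas1 turned below 0. Without WT replicate 2, Snhg8 (-0.15), Snhg11 and Snhg12 did. The other hosts kept their sign in both cases. Without overlap of the pools, 7 of the 15 were higher and 2 lower, against 19.7% and 18.1% of all genes tested. The median log2 fold change was 0.25 against 0.0071 over all genes tested, and 0 passed the threshold. Gas5 had 12.3 and 13.9 (WT) and 14.3 and 15.6 (KO) FPKM, Snhg1 3.81 and 4.66 (WT) and 5.19 and 4.96 (KO) FPKM and Snhg5 3.85 and 3.90 (WT) and 4.35 and 5.05 (KO) FPKM. At an unadjusted p under 0.05 limma gave 3 of the 15 as higher (3.29% of all genes tested), all 3 lincRNAs named above, and 0 as lower (3.03%). Of the 15 proteins listed for snoRNP particles, which carry the mature snoRNAs, 12 were lower and 3 higher in value, 5 and 2 of them without overlap of the pools (18.1% and 19.7% of all genes tested), with a median of -0.10, and 0 passed the threshold. The exception in size was Nhp2, a core protein of the H/ACA class, with 62.3 and 53.5 (WT) and 78.8 and 78.8 (KO) FPKM and a log2 fold change of 0.45, followed by Nop10 of the same class with 0.32 and Nop58, a core protein of the C/D class, with -0.26. Without WT replicate 2, Nop10 had 0.17 and Nop58 -0.064. In the absence of that pool Ruvbl1, Ruvbl2 (0.15), Nop56, Fbl (0.14) and Gar1 turned above 0, and the others kept their sign. The split of 12 lower and 3 higher therefore rested on that pool. Of the 16 factors listed for nonsense-mediated decay, 6 were higher and 10 lower, 3 of each without overlap, with a median of -0.022, and again 0 passed. Their largest values were those of the Smg8 gene with -0.24, Upf3b with 0.20 and Upf2 with -0.18. With 1 pool left out, Smg8 had -0.14 (without KO replicate 2), Upf3b 0.105 (without WT replicate 2) and Upf2 -0.087 (without KO replicate 1).

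**Figure D3:**
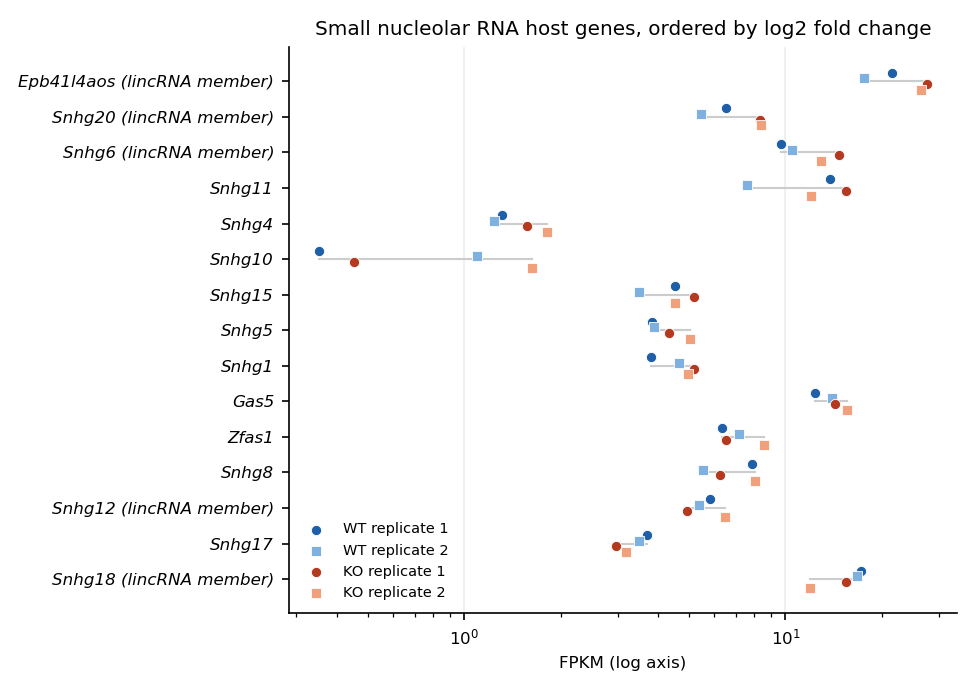
FPKM (log axis) in each pool for the 15 tested snoRNA host genes, ordered from the highest to the lowest log2 fold change, with the 5 that belong to the abundant lincRNAs marked, WT pools in blue, KO pools in red, circles for replicate 1 and squares for replicate 2. In Epb41l4aos, Snhg20 and Snhg6 both KO pools lie right of both WT pools, and in Snhg18 both lie left of them.

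Of the microRNA-bearing lincRNAs, E130102H24Rik (miR-101a) had 8.20 and 5.19 (WT) and 9.18 and 7.38 (KO) FPKM, with a log2 fold change of 0.31, or 0.0055 without WT replicate 2. Gm27028 (miR-30c) had 2.50 and 1.89 (WT) and 2.25 and 3.40 (KO) FPKM, 6720427I07Rik (let-7d) 2.002 and 1.62 (WT) and 1.90 and 2.54 (KO) FPKM and 2900076A07Rik (miR-1839) 2.34 and 2.19 (WT) and 2.13 and 1.98 (KO) FPKM. Only in 2900076A07Rik among these 4 did the KO pools, at a log2 fold change of -0.11, not overlap with the WT pools, and Snhg20 was described above. Of the 13 tested genes for microRNA processing, 10 were lower and 3 higher in value, 7 and 2 of them without overlap of the pools (18.1% and 19.7% of all genes tested), with a median log2 fold change of -0.049, and 0 passed the threshold. Among them Tnrc6a, a partner of Argonaute, had a log2 fold change of 0.37, Tnrc6b of -0.19 and Drosha, which cuts the hairpin from its host, of -0.19. Without KO replicate 1 that of Tnrc6b was -0.115, and without WT replicate 2 that of Drosha was -0.107. Leaving out WT replicate 2 also turned Prkra, Ran (0.12) and Tnrc6c above 0, while the others kept their sign. The split of 10 lower and 3 higher thus rested on that pool. None of the listed imprinted RNAs was among the 111, and the Meg3 and Rian rows were listed at 0.

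The largest lower values came from 5 lincRNAs whose KO pools did not overlap with the WT pools. Gm42031 (chromosome 8 from 85125872 to 85132289 on the minus strand) had 15.2 and 36.6 (WT) and 0.444 and 14.96 (KO) FPKM from 462 and 1186 (WT) and 14 and 458 (KO) reads. KO replicate 1 stood far below the other pools and KO replicate 2 was close to WT replicate 1, so the log2 fold change of -2.66 (standard error 1.39) was -0.64 without KO replicate 1. In addition, 75.6% of its 31-base windows occur in other transcripts, mostly Gm43305, which had 51.0 and 57.3 FPKM in WT and 55.6 and 53.1 FPKM in KO, so that the counting could have split reads between copies. AW112010 (chromosome 19 from 11047617 to 11050566 on the minus strand), an interferon-induced transcript of immune cells that is translated into a short protein, had 4.36 and 7.70 (WT) and 2.72 and 1.44 (KO) FPKM from 54 and 102 (WT) and 35 and 18 (KO) reads. Its log2 fold change was -1.34 (standard error 0.36), with an unadjusted p of 0.017 and an adjusted p of 0.76 (limma), and it was -1.71 to -0.96 with single pools left out. In WT, both AW112010 and the macrophage markers were higher in replicate 2. In KO, the 10 markers summed to 263 and 233 FPKM, between the WT pools, with Lyz2, the most abundant of them, at 57.5 and 164 (WT) and 89.2 and 104 (KO) FPKM. The complement genes C1qb, with 41.98 and 103 (WT) and 41.4 and 33.9 (KO) FPKM, and C1qc, with 20.1 and 42.4 (WT) and 18.6 and 14.9 (KO) FPKM, were below both WT pools in both KO pools, as was AW112010. Of the 10 markers only these 2 had pools without overlap, against 18.1% of all genes tested that were lower without overlap. By log2 fold change 9 of the 10 markers were lower in KO, with a median of -0.54. This count rested on WT replicate 2. Without that pool Lyz2 (0.74), Ms4a7, Cd14, Mrc1 and Csf1r turned above 0. Adgre1, C1qa, C1qb (-0.16) and C1qc (-0.26) stayed below 0. The defining marker Adgre1 ranged from 2.43 to 11.2 FPKM. The part of these cells in the value of AW112010 was not tested.

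Gm12678 (chromosome 4 from 44943753 to 44948330 on the plus strand) had 20.3 and 19.99 (WT) and 9.16 and 15.04 (KO) FPKM and a log2 fold change of -0.75 (standard error 0.25). AI314278 (chromosome 7 from 89426306 to 89441928 on the plus strand) had 11.6 and 9.92 (WT) and 3.32 and 9.17 (KO) FPKM and a log2 fold change of -0.89 (standard error 0.46). Platr26 (chromosome 2 from 71719417 to 71730966 on the plus strand) had 4.17 and 3.54 (WT) and 1.68 and 2.79 (KO) FPKM and a log2 fold change of -0.70 (standard error 0.24). In all 3, the order of the pools was WT replicate 1, WT replicate 2, KO replicate 2 and KO replicate 1 from high to low, so KO replicate 1 was the lowest. Without this pool the log2 fold changes were -0.41 for Gm12678, -0.22 for AI314278 and -0.40 for Platr26. The sum of the 4 proximal tubule markers had the same order, with 1143 and 901 FPKM in WT and 519 and 789 FPKM in KO. This order was found in 6 of the 111 lincRNAs (5.41%), also in Gm3137, D230017M19Rik and Gm47814, and in 3.78% of all genes tested. By log2 fold change all 4 markers were lower in KO, with a median of -0.51, and 0 passed the threshold. Of the 4, 3 were lower without overlap of the pools (18.1% of all genes tested). Without WT replicate 1, Cubn turned above 0 (0.026). Whether the lincRNAs with this order of the pools belong to proximal tubule cells was not tested.

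The largest higher values without overlap were all of lincRNAs under 4 FPKM. Gm33424 (chromosome 13 from 53016202 to 53018185 on the plus strand), of 257 bases, had 1.94 and 0.452 (WT) and 4.88 and 3.83 (KO) FPKM from 8 and 2 (WT) and 21 and 16 (KO) reads. Its log2 fold change was 1.67 (standard error 0.48), the largest of the 111, and its 2 reads in WT replicate 2 were the lowest count of any of them. Gm16755 (chromosome 11 from 120486339 to 120488582 on the minus strand) had 3.33 and 1.06 (WT) and 3.40 and 5.08 (KO) FPKM and a log2 fold change of 0.93 (standard error 0.48). It overlaps on the opposite strand with Mrpl12, a gene of a mitochondrial ribosomal protein, and no source used here states that the counting used strand, so their reads cannot be told apart where the exons overlap (21.4% of its exonic bases). 3300005D01Rik (chromosome 17 from 5798657 to 5803240 on the plus strand) had 2.25 and 1.26 (WT) and 2.47 and 4.51 (KO) FPKM, with 0.81. 4932422M17Rik (chromosome 5 from 123138931 to 123141569 on the plus strand) had 2.10 and 1.54 (WT) and 2.76 and 3.92 (KO) FPKM, with 0.72 (standard error 0.23), and shares 61.5% of its exonic bases with other genes, mainly the lincRNA AI480526 on the opposite strand. 4833418N02Rik (chromosome 17 from 87274886 to 87282814 on the minus strand), which starts 72 bases from Ttc7, had 3.06 and 1.66 (WT) and 3.79 and 3.61 (KO) FPKM, with 0.60. In each of these 5 the lowest pool was WT replicate 2. Without it the log2 fold changes were 0.99 for Gm33424, 0.28 for Gm16755, 0.49 for 3300005D01Rik, 0.55 for 4932422M17Rik and 0.24 for 4833418N02Rik. Without KO replicate 2 that of 3300005D01Rik was 0.43.

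The remaining lincRNAs of the 10 with the highest means showed how mixed the class is. Gm42047 (chromosome 8 from 121833247 to 121841178 on the plus strand) had 20.7 and 36.1 (WT) and 75.97 and 31.6 (KO) FPKM, a range set by KO replicate 1, and 81.3% of its windows are shared with other transcripts. Tmem250-ps (chromosome 2 from 26136814 to 26140521 on the minus strand), which RefSeq calls protein-coding, had 31.98 and 32.4 (WT) and 33.2 and 36.4 (KO) FPKM. Gm10076 (chromosome 14 from 105681828 to 105682211 on the plus strand) had 28.8 and 28.6 (WT) and 14.5 and 45.7 (KO) FPKM, with the KO pools on either side of the WT pools. It shares 84.2% of its windows, mostly with Rpl41, a ribosomal protein gene, and RefSeq calls it a pseudogene, so its value is uncertain. Gm10804 (chromosome 2 from 93452819 to 93469871 on the plus strand), which lies opposite Cd82, had 29.1 and 17.7 (WT) and 23.7 and 35.9 (KO) FPKM. Gm12121 (chromosome 11 from 34141827 to 34143421 on the plus strand) had 27.4 and 22.8 (WT) and 18.3 and 26.9 (KO) FPKM. 1810058I24Rik (chromosome 6 from 35252654 to 35263496 on the plus strand), which encodes a short mitochondrial protein and is protein-coding in RefSeq, had 20.1 and 19.9 (WT) and 17.7 and 22.1 (KO) FPKM. The pools of Gm42047, Gm10076, Gm10804, Gm12121 and 1810058I24Rik overlapped.

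The lincRNAs shared features that their selection did not use. They lay on 20 chromosomes, 20 had a single exon block, and 87 had a provisional name (Gm or Rik). For 80 there was a RefSeq entry, of which 71 were long non-coding RNA, 7 protein-coding and 2 pseudogenes. Among the 7 was 4930516B21Rik, which was matched by a synonym to the overlapping gene Acvr2b, so the class is that of Acvr2b. At least 10% of the 31-base windows were shared with transcripts of other genes in 26 lincRNAs, and at least 50% in 11. Of the 84 others with a transcript sequence, 20 (23.8%, against 19.7% of all genes tested) were higher and 16 (19.05%, against 18.1%) lower without overlap of the pools. One row, Gm26917 (chromosome 17 from 39843013 to 39846341, GC content 69.1%), had 14.7 and 15.98 (WT) and 23.99 and 16.3 (KO) FPKM and lies beside a ribosomal RNA pseudogene of RefSeq. It was singled out after its values were seen, and whether its reads come from ribosomal RNA was not tested.

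Many of the lincRNAs lay close to a protein-coding gene. Among the 111, 37 overlapped with or lay within 1000 bases of their nearest protein-coding gene, 19 of them divergently, that is, back to back on opposite strands. In the 33 of these pairs with a tested neighbour, the log2 fold changes of lincRNA and neighbour had the same sign in 20, with a Pearson r of 0.46 and a Spearman rho of 0.50 across pairs. In the 58 pairs farther apart, 36 had the same sign, and r was 0.12 and rho 0.20. These coefficients are descriptions: the pairs share the 4 libraries, and pairs are not replicates. For the 19 divergent lincRNAs the median log2 fold change was 0.27, and that of their neighbours was -0.027. Across these 19 pairs r was 0.47 and rho 0.57, and 12 had the same sign.

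**Figure D4:**
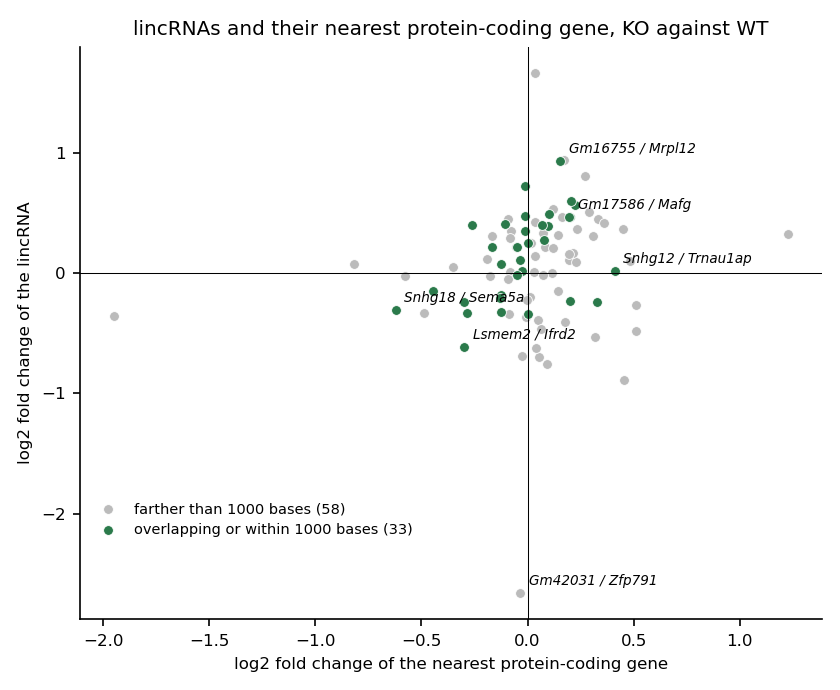
Log2 fold change (KO against WT) of each lincRNA against that of its nearest protein-coding gene, for the 33 pairs that overlap or lie within 1000 bases (green) and the 58 pairs farther apart (grey) with a tested neighbour. The green points spread from lower left to upper right (r = 0.46), and the grey points show less order (r = 0.12).

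The pairs given next were chosen after their values were seen, for neighbours with a known role in development, in the kidney or in the oxidative stress response. Lhx1os starts 125 bases from Lhx1, a transcription factor of kidney development, and had 15.6 and 10.6 (WT) and 12.6 and 13.5 (KO) FPKM, while Lhx1 had 5.88 and 4.10 (WT) and 5.09 and 4.55 (KO) FPKM. The values of both genes overlapped between groups. Snhg18 starts 148 bases from Sema5a, an axon guidance gene, which had 3.98 and 5.88 (WT) and 3.88 and 2.26 (KO) FPKM, and both genes had their lowest level in KO replicate 2. Gm8066 lies opposite Epo, the erythropoietin gene, and had 7.70 and 5.75 (WT) and 8.998 and 7.75 (KO) FPKM, while Epo had 0 and 0.0680 (WT) and 0 and 0 (KO) FPKM.

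Gm17586 starts 168 bases from Mafg, a partner of the oxidative stress factor NRF2. It had 7.47 and 5.95 (WT) and 7.70 and 11.5 (KO) FPKM, both KO pools above both WT pools, with a log2 fold change of 0.47 (standard error 0.23), and Mafg had 27.8 and 27.4 (WT) and 28.8 and 34.9 (KO) FPKM, with 0.20. Without KO replicate 2 the log2 fold change of Gm17586 was 0.19 and that of Mafg 0.060. The promoter window of Gm17586 from RefSeq (GRCm38.p6, chr11:120633500-120633799, plus strand, 250 bases before to 50 after the start) is shown because both genes start back to back beside it, with a match to the antioxidant response element core TGACNNNGC in capitals, searched on both strands.
Gm17586 promoter: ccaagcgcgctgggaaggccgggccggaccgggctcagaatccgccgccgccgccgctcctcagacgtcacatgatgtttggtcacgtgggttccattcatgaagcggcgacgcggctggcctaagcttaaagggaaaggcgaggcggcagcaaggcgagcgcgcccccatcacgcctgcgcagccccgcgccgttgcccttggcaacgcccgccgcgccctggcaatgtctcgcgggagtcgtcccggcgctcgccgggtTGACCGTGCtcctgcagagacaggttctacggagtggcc
This core was in 12.5% of the 72 promoter windows matched to 65 of the lincRNAs and in 12.4% of all 32851 windows of this length, so the share was close to that of all windows. The cyclic AMP response element TGACGTCA was in 4 of the 72 windows (5.56%, against 1.79% of all windows), and the box CCAAT in 24 (33.3%, against 37.4%).

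By FPKM, the pool with the lowest level of a lincRNA was most often WT replicate 2. In 52 of the 111 (46.8%) WT replicate 2 had the lowest FPKM, against 30.7% of all genes tested and 31.6% of protein-coding genes with a mean of at least 2 FPKM. WT replicate 1 was the lowest in 12 (10.8%, against 22.2%). Antisense genes of at least 2 FPKM showed the same, with 50.5% lowest in WT replicate 2. The median deviation of the 111 from their own mean over the pools was 0.098 in WT replicate 1, -0.157 in WT replicate 2, 0.023 in KO replicate 1 and 0.082 in KO replicate 2, on the log2 scale. The median log2 level of protein-coding genes lay between 2.82 and 2.84 in each pool. In WT replicate 2 the library total behind the FPKM, 17203609, was above the reads on genes, 16045724, and in the other pools it was below. By share of the reads on genes, the lincRNAs together were lowest in KO replicate 2 (0.354%), against 0.409% in WT replicate 2. Malat1 and Neat1 took 54.3% and 61.2% of these lincRNA reads. WT replicate 2 was also the pool with the most macrophage marker RNA, as given above, and with the lowest sum of the 4 markers of thick limb, collecting duct and podocyte (1020 FPKM, against 1187 to 1577 in the other pools). The full order of the pools in the sum of these 4 was found in 7 lincRNAs (6.31%, against 5.46% of all genes tested), and that of the macrophage markers in 1 (0.901%, against 3.91%). The part of these cells and of the library total in the lower lincRNA levels was not tested.

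**Figure D5:**
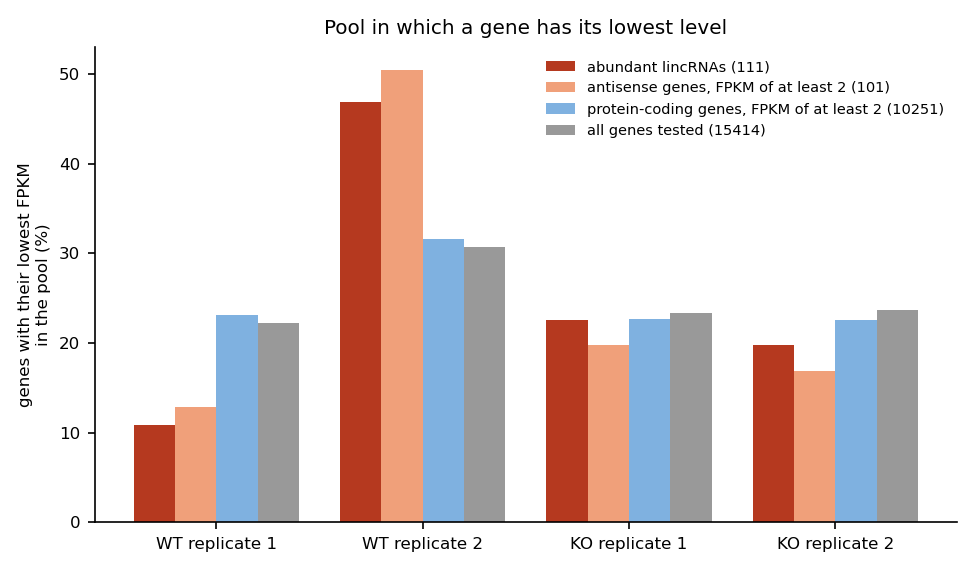
Share of genes (%) whose lowest FPKM falls in each pool, for the 111 abundant lincRNAs, 101 antisense and 10251 protein-coding genes with a mean of at least 2 FPKM, and all 15414 genes tested. WT replicate 2 is the lowest pool for 46.8% of the lincRNAs and 30.7% of all genes tested.

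On chromosome 8, which carries Apela, lay 7 of the lincRNAs, at 19.2 to 61.8 Mb from the gene. Their log2 fold changes were -2.66 for Gm42031 at 20.1 Mb, 0.22 for Gm26532 at 19.2 Mb, 0.94 for Gm15889 at 29.3 Mb and 0.01 for Gm9951 at 30.97 Mb. The others, Gm44785 at 54.3 Mb, Gm42047 at 56.8 Mb and Gm31718 at 61.8 Mb, had 0.09, 0.83 and -0.40. With single pools left out, those of Gm26532, Gm9951 and Gm44785 changed sign. Without WT replicate 2 Gm15889 had 0.19, and without KO replicate 1 Gm42047 had 0.20 and Gm31718 -0.14. The pools of Gm15889 and Gm42047 overlapped. The part of the genetic background around the targeted gene was not tested.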

How the data were processed

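The study collected kidney RNA, purified mRNA with poly-T beads and sequenced 4 libraries, 2 for each genotype. The values deposited by the authors are FPKM, given for each gene in each library in 1 table. The submitters' processing notes name HISAT2 2.0.5 and the builds GRCm38.p6 and mm10, and the counting tool, its use of strand and the annotation are not given in the sources used here. Of the features shared with GENCODE M21, 97.1% had identical positions. FPKM times gene length, divided by its smallest nonzero value in the library, was a whole number of reads, to within 0.01, in 100% of nonzero cells, from which depth, replicate spread and voom weights were taken. The library totals behind the FPKM were 16071739 and 17203609 (WT) and 16727839 and 16237848 (KO). They differ from the reads on genes, 16290098 and 16045724 (WT) and 16927742 and 16772105 (KO). What these totals count is not given in the sources used here, and the voom fit used them too. Replicates differed beyond sampling noise (34.6 in WT and 26.9 in KO as chi-square over genes, per gene). Intervals of counts were not given, since counting error is only part of the spread.

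Genes with a mean of at least 0.5 FPKM entered limma 3.58.1 (R 4.3.3) as log2(FPKM + 0.5), with lmFit and eBayes with a trend, two-sided and without covariates, and p-values were adjusted by Benjamini-Hochberg over all 15414 of them, with a threshold of 0.05. The script was tested on simulated data. Shared sequence was measured as the percent of 31-base windows of a lincRNA found in GENCODE M21 transcripts of other genes. Promoters, microRNAs and gene classes came from RefSeq. Other steps used Python 3.11.15, numpy 2.4.6, pandas 2.3.3 and matplotlib 3.10.9.

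The lincRNAs and all lists were chosen with earlier results of these data known. Named lincRNAs were the 10 with the highest mean, the 5 largest log2 fold changes in each direction among those without overlap of the pools, and those in lists by role. Partner lists named their 3 largest changes. Alternatives tried were a filter of 1 FPKM or none, pseudocounts of 0.1 and 1, quantile normalization, centring on protein-coding genes, a block for the replicate number, eBayes with no trend, voom weights, each pool left out, and lincRNAs from 1 or 5 FPKM. Sets without shared sequence, without another RefSeq class and off chromosome 8 were added after the data were seen.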

Additional observations from a re-analysis of the deposited data

How the results depend on the processing

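In each of the 14 fits, 0 of the 111 lincRNAs and 0 of all genes had an adjusted p-value under 0.05 with limma, while 687 to 1720 genes had an unadjusted p under 0.05. The counts of lincRNAs at an unadjusted p under 0.05 moved: 7 lower became 4 with no filter on low values, and 7 higher became 3 to 28 with single pools left out, with 3 when WT replicate 2 and 28 when WT replicate 1 was dropped. The median log2 fold change, 0.097, ranged from -0.035 without WT replicate 2 to 0.21 without WT replicate 1. With 200 lincRNAs of at least 1 FPKM there were 14 higher and 9 lower at an unadjusted p under 0.05 and 46 higher and 33 lower without overlap. With 40 of at least 5 FPKM there were 3 higher and 2 lower at that p and 12 higher and 6 lower without overlap, as the construction of these sets brings. Of all genes tested, limma gave 3.29% as higher and 3.03% as lower at that p. Without overlap, 19.7% of them were higher and 18.1% lower. Of the 24 named lincRNAs, 18 kept their sign throughout. With quantile normalization the log2 fold change was -0.025 for Malat1 and -0.010 for 2900097C17Rik, and the cause was not tested. With single pools left out, it ranged from -0.96 to 0.66 for Gm10076, from -0.44 to 0.10 for Gm12121, from -0.18 to 0.14 for 1810058I24Rik and from -0.17 to 0.20 for Snhg12. A pool left alone in its group is assumed to vary like the other group. Replicate numbers did not pair the pools, as across genes the correlation of WT and KO deviations at the same number was -0.0017. With the replicate number as a block the counts stayed at 7 higher and 7 lower lincRNAs at an unadjusted p under 0.05, and 932 genes were at that level against 974. Depth limits the low lincRNAs most: 49 had fewer than 100 reads in each pool.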
